A study of Mus musculus with 24 samples.

Results

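The 8 liver genes described here were followed across the arrays because their probes differed most clearly, by rank of p, between high-fat-fed mice of the EPA lineage and of the oleic lineage. They were Glcci1, Prox1, Snrk, Kif1b, Mycn, N4bp3, Fam110a and Exo5. They are 8 of the 37074 names on the array. The arrays carried 18 probes for them among 56605 probes, and 16 of the 18 were bright enough to be tested among 30003. The members were picked by name from the upper end of that ranking and were not its first 8 entries. By p, the best probe of each stood at rank 1 (Glcci1), 2 (Prox1), 6 (Mycn), 9 (N4bp3), 16 (Fam110a), 28 (Snrk), 30 (Exo5) and 32 (Kif1b), with genes such as Pdia6, Klf4 and Derl3 at ranks 3, 4 and 8. By size of the difference the same probes ranked from 26 (Mycn) to 1194 (Snrk).

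RNA came from the liver of 24 male C57Bl6J mice of the third generation of their lineage, killed while fasting, with 1 single-colour Agilent array per mouse. One lineage had received fish oil rich in eicosapentaenoic acid (EPA), a long-chain n-3 polyunsaturated fatty acid, and the other high-oleic sunflower oil as the control fatty acid. HFepa mice (HFD_O3 in the labels, 7 arrays) were of the n-3 lineage and HFoleic mice (HFD_Cont, 8 arrays) of the control lineage, and both ate an obesogenic diet rich in fat and sucrose. Reference mice (STD_Cont, 9 arrays) were of the control lineage on a standard low-fat diet. The EPA lineage had no low-fat group, so a difference between HFepa and HFoleic cannot be told apart into lineage alone and lineage on this diet, and mice of 1 lineage share ancestors.

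The genes have unrelated known roles. Glcci1 was named as a transcript induced by glucocorticoids. Prox1 is a homeobox transcription factor needed for lymphatic endothelium and for liver development, and in hepatocytes it acts as a corepressor of nuclear receptors. Snrk encodes a kinase related to AMPK, the cellular energy sensor, and Kif1b a kinesin motor that carries mitochondria and vesicle precursors along microtubules. Mycn encodes N-Myc, a growth-promoting transcription factor that pairs with Max and is mostly known from embryonic and neural tissue. N4bp3 binds the ubiquitin ligase Nedd4, Fam110a belongs to a small family of centrosome and spindle pole proteins, and Exo5 is an exonuclease of single-stranded DNA used in repair.

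Because several genes were read by more than 1 probe and those probes did not always behave alike, the probes that disagreed are shown by the first 30 of their 60 bases, written 5′ to 3′. Coordinates are those of build mm9 in the scanner files, and all 6 probes lie on the minus strand. For Prox1, probe 1 lies at chr1:191946360-191946419 and probe 2 at chr1:191943668-191943727, 2692 bases away. For Kif1b, probe 1 lies at chr4:148608412-148608471 and probe 4, with the highest signal of the gene, at chr4:148550431-148550490, 57981 bases away. For Fam110a, probe 1 lies at chr2:151795137-151795195 and probe 2 at chr2:151795477-151795536, 340 bases away.
Prox1 probe 1: agcttggccgtgtggacttagaggaaaccc
Prox1 probe 2: gtgcctctgagtgttacttaattgaagtat
Kif1b probe 1: cttctgatccttctagcatagcacattgtt
Kif1b probe 4: cttgcatcacagaactgctagtgaacgagg
Fam110a probe 1: ggttaggagcctggtgctctgaagtctctg
Fam110a probe 2: ggactgacccacagaagtttgctgttgccc
The scanner files assign both Fam110a probes to the same RefSeq transcript, while the paired probes of Prox1 and of Kif1b are assigned to different transcripts. Exon and UTR positions are not given here, since no annotation of build mm9 was used. The other leading probes lie on chromosome 6 from 8543357 to 8543416 (Glcci1), on chromosome 9 from 122078296 to 122078355 (Snrk), on chromosome 12 from 12942981 to 12943040 (Mycn), on chromosome 11 from 51456596 to 51456655 (N4bp3) and on chromosome 4 from 120593877 to 120593936 (Exo5).

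Levels are log2 median spot signal after quantile normalization between arrays. The leading probe of a gene is its tested probe with the smallest p between HFepa and HFoleic, the contrast that chose the gene. For that reason HFepa minus HFoleic, and each high-fat group against the reference, are given below as descriptions without a test. Over all tested probes HFepa and HFoleic differed at an adjusted p under 0.05 for 0 probes (0%) in the limma fit, with 2910 (9.7%) at an unadjusted p under 0.05, and for 0 by the two-sample t-test that the methods name. In whole-liver RNA, fewer cells of a type and less RNA per cell cannot be told apart.

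All 9 hepatocyte markers, among them Alb and Ttr, were well above background on all 24 arrays. Some reference arrays stood apart in markers of other cells. For reference replicate 5 the mean over 8 stellate cell markers was 10.5 on the log2 scale, where the next highest array had 9.65, and that over 4 bile duct markers was 9.36, where the next had 8.04. Reference replicate 3 was highest in 4 skeletal muscle markers (7.65, next 6.51) and reference replicate 4 in 5 adipocyte markers (9.52, next 9.05). Means over markers of macrophages, of lymphatic and sinusoidal endothelium and of blood cells overlapped between the 3 groups. Of 8 exocrine pancreas markers 4 were tested and above background on all arrays, with means of 9.32 to 9.82 in the reference, 9.17 to 10.02 in HFoleic and 9.57 to 10.5 in HFepa, where replicate 7 was the highest, while Cpa1 was above background on none. The part of other cells in the values below was not tested.

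Glcci1, Prox1, Snrk and Kif1b were higher in HFepa than in HFoleic. Glcci1 ranged in the reference from 8.62 to 8.92 with a median of 8.80, in HFoleic from 8.40 to 8.78 with a median of 8.58, and in HFepa from 8.79 to 9.21 with a median of 9.06. Every HFepa array was above every HFoleic array. The reference median lay between theirs, while the reference range overlapped both groups. HFepa minus HFoleic was 0.43 (SE 0.07), a ratio of 1.35. Against the reference, HFoleic differed by -0.21 (SE 0.07) and HFepa by 0.23 (SE 0.07), which nearly cancelled in the mean of all high-fat mice.

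Prox1 probe 1 gave 11.12 to 11.89 in the reference (median 11.35), 10.76 to 11.27 in HFoleic (median 11.05) and 11.37 to 11.86 in HFepa (median 11.71). All 7 HFepa arrays lay above all 8 HFoleic arrays and inside the reference range, while 7 of 8 HFoleic arrays lay below every reference array. HFepa minus HFoleic was 0.61 (SE 0.10), a ratio of 1.53, with HFoleic minus reference at -0.40 (SE 0.10) and HFepa minus reference at 0.21 (SE 0.10). The second Prox1 probe did not show this. It ranged from 10.93 to 11.53 in the reference, from 10.39 to 11.07 in HFoleic and from 10.51 to 11.31 in HFepa, and HFepa minus HFoleic was 0.04 (SE 0.12). On that probe both high-fat groups were below the reference, by -0.28 (SE 0.11) in HFoleic and -0.24 (SE 0.12) in HFepa. The probes' deviations from the group means correlated at 0.46 over 24 arrays.

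Snrk, the AMPK-related kinase, had the smallest difference. Probe 1 lay between 9.89 and 10.52 in the reference (median 10.30), between 9.96 and 10.29 in HFoleic (median 10.18) and between 10.32 and 10.57 in HFepa (median 10.51). HFepa was above HFoleic on all 7 arrays, by 0.33 (SE 0.07), a ratio of 1.25. Probe 2, 1595 bases away, gave 0.29 (SE 0.07), also without overlap, with no value for reference replicate 2, whose spot was an outlier. The third probe, 36495 bases away, gave 0.04 (SE 0.07), with overlapping groups. Probes 1 and 2 moved together within groups (r = 0.81 over 23 arrays) and probes 1 and 3 less so (r = 0.34 over 24 arrays).

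Kif1b, the kinesin, had 5 probes. Probe 1 lay between 7.75 and 8.54 in the reference (median 8.25), between 7.99 and 8.42 in HFoleic (median 8.12) and between 8.39 and 8.89 in HFepa (median 8.66). On 6 of 7 HFepa arrays the level was above every HFoleic array, and the 2 groups overlapped on the last. The difference was 0.44 (SE 0.10) on probe 1 and 0.43 (SE 0.11) on probe 2, 27757 bases away. The 3 probes assigned to 1 further transcript, from 53514 to 57981 bases from probe 1, gave 0.18 (SE 0.10), 0.12 (SE 0.07) and 0.10 (SE 0.10), and HFepa and HFoleic overlapped on each. Probe 3 of these had no value for HFepa replicate 5. Within groups, probe 1 correlated at 0.73 with probe 2, at 0.58 with probe 3, at 0.45 with probe 4 and at 0.02 with probe 5.

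**Figure D1:**
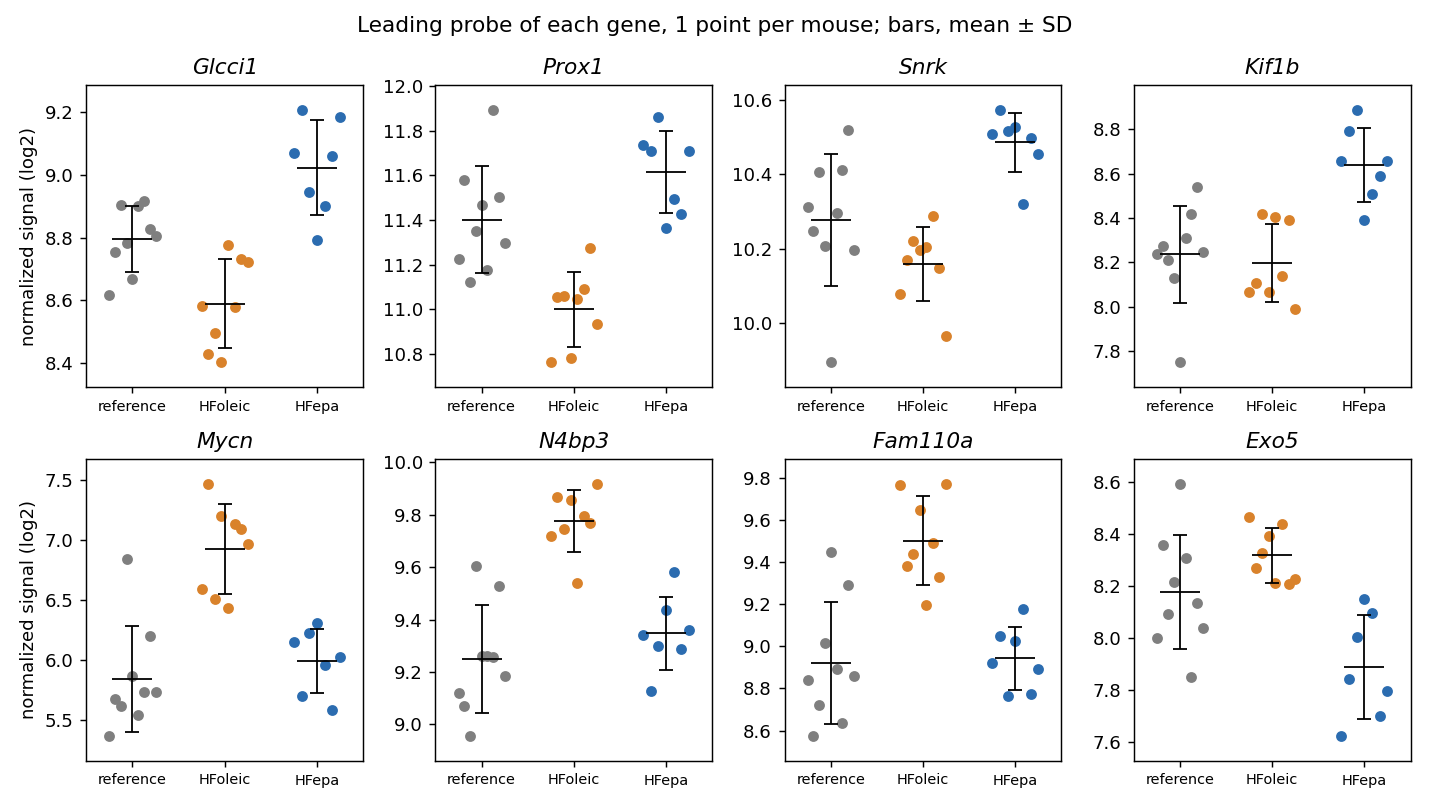
Normalized log2 signal of the leading probe of each gene (y axis), with 1 point per mouse in the reference (grey), HFoleic (orange) and HFepa (blue) groups and bars for the mean ± SD. In the upper row HFepa lies above HFoleic, in the lower row below it, and for Mycn, N4bp3 and Fam110a all 7 HFepa points fall inside the reference range. For Mycn and N4bp3 the top of that range is reference replicate 4.

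Mycn, N4bp3, Fam110a and Exo5 were lower in HFepa than in HFoleic. Mycn differed most and was read near background. Its probe ranged from 5.37 to 6.84 in the reference (median 5.73), from 6.43 to 7.46 in HFoleic (median 7.03) and from 5.58 to 6.31 in HFepa (median 6.03). No HFepa array reached the lowest HFoleic array, and all 7 were inside the reference range, whose top was 1 array, reference replicate 4. HFepa minus HFoleic was -0.93 (SE 0.18), a ratio of 0.525, and HFoleic minus reference was 1.08 (SE 0.17) where HFepa minus reference was 0.15 (SE 0.18). The spot was well above background on all 8 HFoleic arrays but on only 6 of 9 reference and 5 of 7 HFepa arrays. Its raw median signal was 82.5 to 157 in HFoleic, 47 to 78 in HFepa and 39.5 to 121 in the reference. The size of the difference varied with the processing, from -1.58 on the processed signal scaled to the 75th percentile to -0.71 after normexp background correction.

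N4bp3 ranged from 8.96 to 9.61 in the reference (median 9.26), from 9.54 to 9.92 in HFoleic (median 9.78) and from 9.13 to 9.58 in HFepa (median 9.34). On 7 of 8 HFoleic arrays the level exceeded every reference array, and 6 of 7 HFepa arrays were below every HFoleic array. The differences were -0.43 (SE 0.08) for HFepa minus HFoleic, a ratio of 0.743, 0.53 (SE 0.08) for HFoleic minus reference and 0.10 (SE 0.08) for HFepa minus reference. A second N4bp3 probe was well above background on only 3 reference, 0 HFoleic and 1 HFepa arrays and was not tested.

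Fam110a probe 1 ranged from 8.58 to 9.45 in the reference (median 8.86), from 9.19 to 9.77 in HFoleic (median 9.46) and from 8.77 to 9.18 in HFepa (median 8.92). HFepa and HFoleic did not overlap, and HFepa minus HFoleic was -0.56 (SE 0.12), a ratio of 0.678. HFoleic minus reference was 0.58 (SE 0.11) and HFepa minus reference 0.02 (SE 0.11). The second probe, 340 bases away, ranged from 8.92 to 9.82 in the reference, from 8.91 to 9.49 in HFoleic and from 9.12 to 9.54 in HFepa. Its HFepa minus HFoleic difference was 0.09 (SE 0.12), with the sign turned, and within groups the pair of probes correlated at -0.30. The order of the groups for Fam110a thus differed with the probe.

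Exo5, the exonuclease, took opposite sides of the reference in the 2 lineages. It ranged from 7.85 to 8.59 in the reference (median 8.13), from 8.21 to 8.46 in HFoleic (median 8.30) and from 7.62 to 8.15 in HFepa (median 7.84). All 8 HFoleic arrays were above the reference mean and all 7 HFepa arrays below it. HFepa minus HFoleic was -0.43 (SE 0.09), a ratio of 0.742, made of 0.14 (SE 0.09) for HFoleic and -0.29 (SE 0.09) for HFepa against the reference. Its second probe was well above background on 3 reference, 1 HFoleic and 0 HFepa arrays and was not tested.

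**Figure D2:**
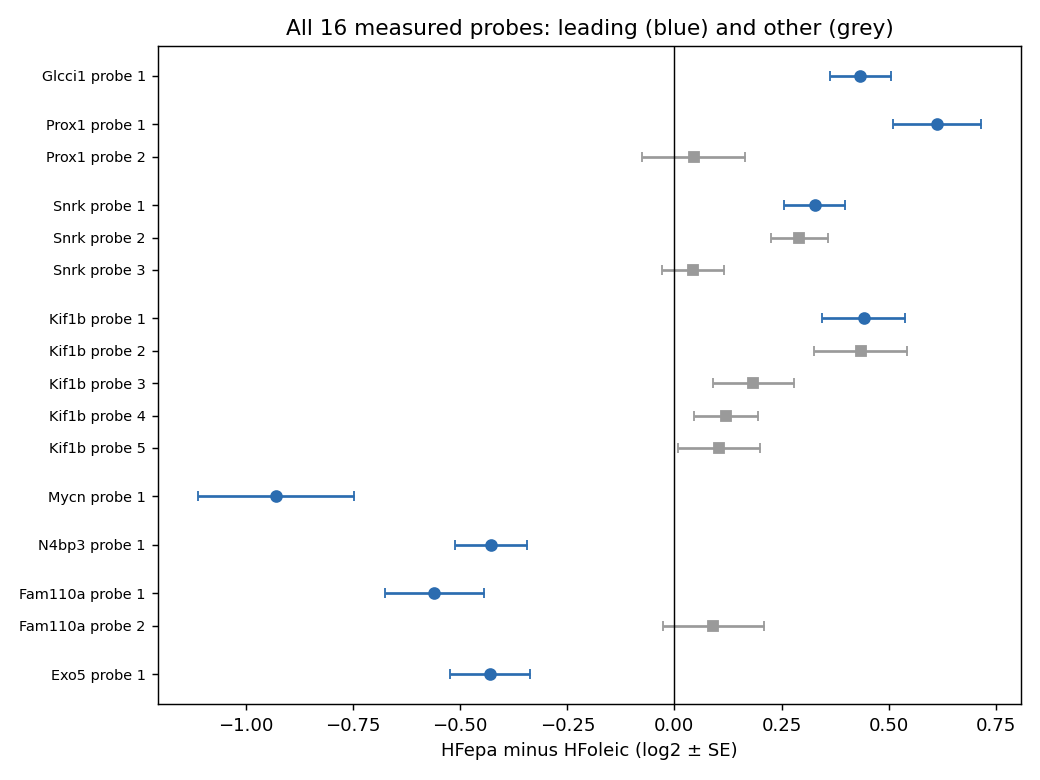
HFepa minus HFoleic (x axis, log2, bars ± SE) for the 16 tested probes, with the leading probe of each gene in blue and the others in grey. The other probes of Prox1 (0.04) and Fam110a (0.09) and the third Snrk probe (0.04) lie near 0, while Kif1b probe 2 (0.43) and Snrk probe 2 (0.29) lie beside their leading probes.

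HFepa and HFoleic did not overlap on Glcci1, Prox1 probe 1, Snrk probes 1 and 2, Mycn, Fam110a probe 1 and Exo5, that is on 7 of the 16 tested probes, where 44 of all 30003 probes (0.147%) did not overlap. The rule used this contrast, so nothing is read from that count. Set against the reference group, the members took several forms. For Mycn, N4bp3 and Fam110a probe 1 the HFoleic mean stood well above the reference and the HFepa mean within 0.15 of it. For Prox1 probe 1 HFoleic stood below the reference and HFepa closer to it, above. For the leading probes of Snrk, Kif1b and Exo5 HFepa lay farther from the reference than HFoleic. This differed with the probe. On Snrk probe 2 HFoleic lay farther (-0.21, HFepa 0.08), and on Snrk probe 3 HFepa did (0.09, HFoleic 0.05). On Kif1b probe 2 HFoleic lay farther (-0.25, HFepa 0.18), as on the remaining Kif1b probes. For Glcci1 both groups lay about equally far on opposite sides. HFepa minus HFoleic kept its sign on all 3 array slides and in both slide rows for all 8 leading probes. That contrast chose the probes. Where the 2 groups did not overlap, no subset of arrays could turn the sign, so nothing is read from it. Within slides the difference ranged, for example, from 0.31 to 0.50 for Glcci1, from 0.49 to 0.68 for Prox1 and from -0.98 to -0.76 for Mycn.

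**Figure D3:**
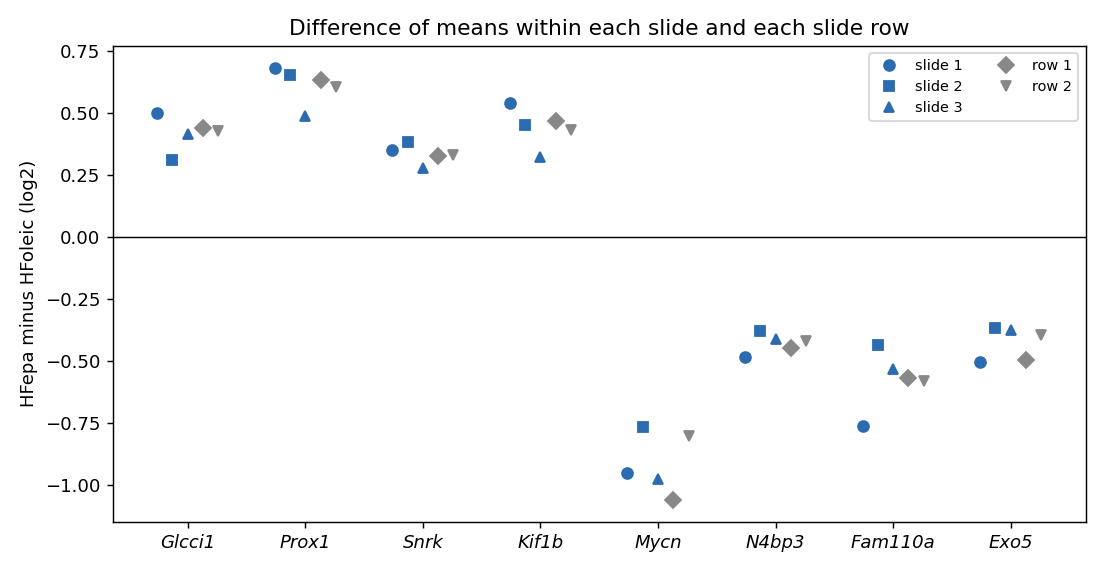
HFepa minus HFoleic of the leading probes (y axis, log2 difference of means) within each of 3 slides (blue) and 2 slide rows (grey). For each gene the 5 points share 1 sign, with Fam110a the most spread over slides, from -0.76 to -0.43. The probes were chosen by this contrast, so nothing is read from the shared sign.

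A comparison other than the contrast that chose the genes is the mean of all 15 high-fat arrays against the 9 reference arrays. The members were chosen with earlier results of these data known, so its p-values are no independent support. The comparison is orthogonal to HFepa minus HFoleic, although the residual spread is shared and the probes were chosen partly for a small one. It sets all mice on the obesogenic diet against the low-fat mice. The reference mice were all of the control lineage, while the high-fat mice were of both lineages. Diet and lineage therefore cannot be fully told apart in it. In limma, with adjustment over all 30003 probes, 1927 probes (6.42%) were called, 3.37% of all higher and 3.06% lower. Of the 16 member probes 3 were called, all higher in the high-fat arrays, and 5 had an unadjusted p under 0.05, against 20.2% of all probes. The Mycn call among them is not independent of the filter, which the Mycn probe passed only through HFoleic, the group where it was highest, so no support is drawn from this count.

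The 3 were N4bp3, Mycn and Fam110a probe 1, each from the genes that were lower in HFepa. N4bp3 rose by 0.33 (SE 0.07, adjusted p = 0.00693 in limma) and lay above the reference mean on 14 of 15 high-fat arrays. Mycn had 0.65 (SE 0.15, adjusted p = 0.0107 in limma), on 13 of 15 arrays, or 0.65 (adjusted p = 0.0220 in limma) with no filter on dim probes. Fam110a probe 1 rose by 0.32 (SE 0.09, adjusted p = 0.0398 in limma), on 12 of 15 arrays, whereas its second probe differed by -0.11 (SE 0.10, adjusted p = 0.559 in limma). By the methods' t-test none of the 3 calls held after adjustment (0.0587 for N4bp3, 0.0952 for Mycn and 0.184 for Fam110a probe 1). Reference replicate 4, the highest in adipocyte markers, had the highest reference values of Mycn (6.84) and N4bp3 (9.61), and without it these genes had 0.77 (adjusted p = 0.00210 in limma) and 0.37 (0.00325), and Fam110a probe 1 had 0.33 (0.0501). Without reference replicate 3 the values were 0.62 (0.0227) for Mycn, 0.29 (0.0158) for N4bp3 and 0.30 (0.0799) for Fam110a probe 1. In each the HFoleic arrays carried most of the difference, as given above, and HFepa mice alone lay inside the reference range. The Fam110a call ended in 14 of 24 fits that left out 1 array, with an adjusted p of up to 0.0899 without reference replicate 7, and it was 0.0112 without reference replicate 5. With a score of clock genes per array as a covariate the Mycn value was 0.50 (adjusted p = 0.0711 in limma), where that score ran from -0.76 to 0.75 in the reference, from -0.24 to 1.53 in HFoleic and from -0.62 to 2.05 in HFepa. The part of the clock phase in the result was not tested further.

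The other 5 leading probes did not pass the test, which does not show that they were equal. Glcci1 differed by -0.00 (95% interval -0.12 to 0.12, adjusted p = 0.979 in limma), Prox1 probe 1 by -0.11 (-0.29 to 0.06, 0.491), Snrk by 0.03 (-0.08 to 0.15, 0.801), Kif1b by 0.17 (0.01 to 0.33, 0.230) and Exo5 by -0.06 (-0.22 to 0.10, 0.730). For Snrk the value was -0.01 without reference replicate 5. The second Prox1 probe was lower in the high-fat arrays by -0.26 (SE 0.10, adjusted p = 0.119 in limma), on 14 of 15 arrays, and did not pass either. Within slides, the high-fat difference of Mycn was 0.53 to 0.72, of N4bp3 0.28 to 0.39 and of Fam110a probe 1 0.27 to 0.36, while that of Prox1 probe 1 changed sign, from -0.41 to 0.15, as did those of Glcci1 (-0.10 to 0.16), Snrk (-0.05 to 0.11) and Exo5 (-0.12 to 0.05).

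**Figure D4:**
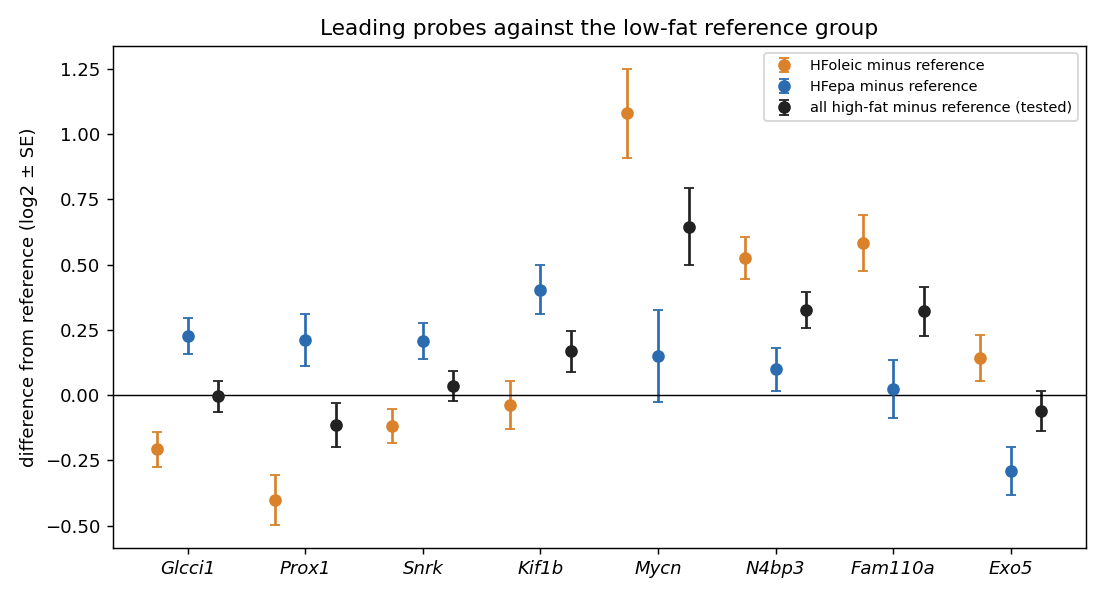
Difference of the leading probes from the reference group (y axis, log2, bars ± SE) for HFoleic (orange), HFepa (blue) and all 15 high-fat arrays (black, the tested comparison). For Mycn the orange point lies at 1.08 and the blue at 0.15, and for Glcci1 the black point lies at 0 between an orange point below and a blue point above.

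Within the groups, where neither diet nor lineage differed, some leading probes also varied together. Over 24 arrays, after each group mean was taken off, the strongest pairs were Mycn with N4bp3 (r = 0.74) and Snrk with Kif1b (r = 0.72). In the 9 reference mice alone, whose mean did not enter the contrast but whose spread did, these pairs had r = 0.84 and r = 0.93. Single arrays weigh on both values. Reference replicate 4 was the highest reference array on Mycn (6.84) and N4bp3 (9.61). Reference replicate 5 was the lowest on Snrk (9.89) and Kif1b (7.75). All 12 pairs of genes that differed the same way between the lineages had r above 0, with a median of 0.38, and 15 of the 16 pairs that differed opposite ways had r below 0, with a median of -0.27. In the reference alone the counts were 12 of 12 and 10 of 16. Other probes of the same genes did not always follow. Snrk probe 1, for example, had r = 0.63 with Kif1b probe 2 and r = -0.12 with Kif1b probe 5. The probes were chosen by this contrast, and no share over other pairs of probes stands beside the counts. Nothing is therefore read from them. These values describe the arrays, which share slides, RNA handling and normalization, and no test was made of them.

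**Figure D5:**
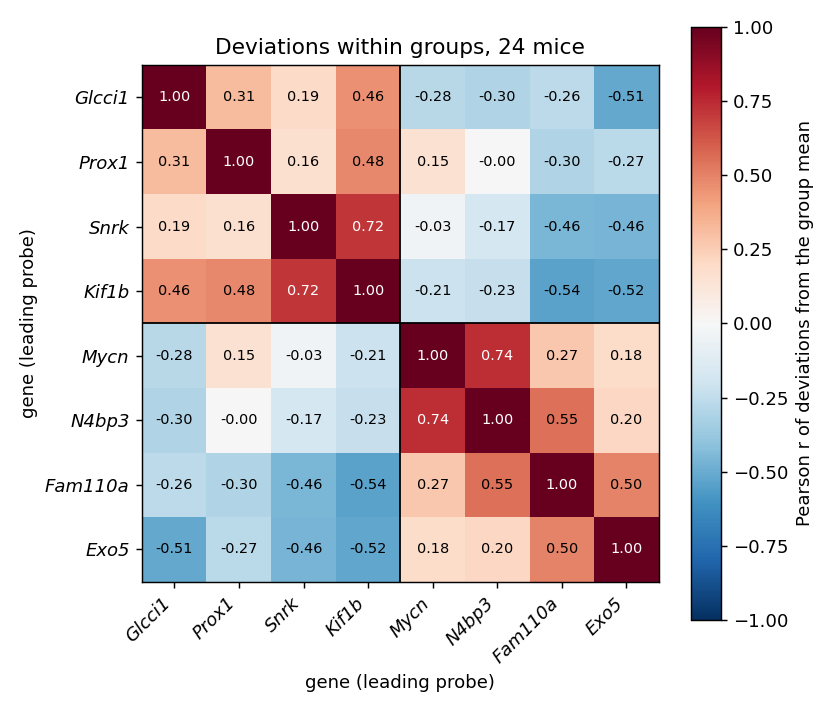
Pearson r of the deviations from the group mean between leading probes over 24 arrays (colour scale from -1 to 1), with lines between the 4 genes higher and the 4 lower in HFepa. Mycn with N4bp3 (0.74) and Snrk with Kif1b (0.72) are the strongest pairs, and most values across the lines are negative. The probes were chosen by the contrast that sets the lines, so nothing is read from these signs.

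The genes whose probes followed each member most closely within groups, among all tested genes, were of varied kinds. For Snrk they were led by Mlycd (r = 0.86), which encodes malonyl-CoA decarboxylase, an enzyme that relieves the block on fatty acid oxidation, and Tmprss6 (r = 0.85), the hepatocyte protease that restrains hepcidin. For Kif1b they were Gnas (0.83), the stimulatory G protein subunit, Eci3 (0.81), an enzyme of unsaturated fatty acid oxidation, and Zcchc10 (0.81). For Mycn they were Fdxr (0.84), the ferredoxin reductase of mitochondria, Cyp21a1 (0.78) and Cnp (0.78), and for N4bp3 Gm31084 (0.82), Eef2k (0.77) and Lrrc4c (0.77). Exo5 was followed by Pdgfa (0.85), Bcam (0.78) and Tprn (0.78), Fam110a by Pip4k2c (0.79), Glcci1 by Kansl1l (0.79) and Tmem39b (0.77), and Prox1 by Alg8 (0.73), Apex2 (0.71) and BB479244 (0.70). For Glcci1, Snrk and Fam110a, 1 of the 3 closest probes was named only by a chromosome interval and is left out. Each r is over 24 arrays and is the top of a search over all tested probes.

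Genes related to each member by function were read from their brightest probe in the same high-fat comparison, where 6.42% of all probes were called and the median of all was 0.00. Among 21 glucocorticoid-responsive genes, set beside Glcci1, 5 were called lower and 1 higher, and the median of the list was -0.24. Called or not, 15 of the 21 were lower and 6 higher. Genes not called included Tsc22d3 (0.22, adjusted p = 0.494 in limma), Fkbp5 (-0.26, 0.232) and Klf9 (0.01, 0.947). Those called lower included Pck1, the gluconeogenic enzyme (-0.53, adjusted p = 0.00299 in limma), Igfbp1, a binding protein of insulin-like growth factors (-1.05, 0.00777), and Tat, tyrosine aminotransferase (-0.55, 0.0106), each lower than the reference mean on 15 of 15 high-fat arrays. The cell cycle inhibitor gene Cdkn1a fell by 1.34 on the log2 scale, with an adjusted p of 0.0268, and Mt1, a metallothionein, had -1.38 (0.0417). Mt1 missed the threshold in 19 of 36 alternatives, 17 of them fits without 1 array (-1.18, 0.0913 without reference replicate 5), and Cdkn1a in 7 of 36, among them the clock score as a covariate (-0.77, 0.177). Nr3c1, the glucocorticoid receptor itself, rose by 0.30 (0.00570), while Glcci1 differed by -0.00. For Nr3c1 and for Mt1 only 1 of 2 tested probes was called.

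Of 19 partners and hepatocyte regulators set beside Prox1, 2 were called lower and 0 higher. They were Esrra, a nuclear receptor that Prox1 is known to bind (-0.31, adjusted p = 0.00706 in limma), and Ppargc1a, its coactivator (-0.57, 0.0106), and the median of the list was 0.04. Of 16 genes of the Myc and Max network 3 were called higher and 0 lower, with a median of -0.03. The 3 were Mlxipl, the glucose-responsive factor ChREBP (0.50, 0.00187), and the Max partners Mxd1 (0.22, 0.00777) and Mxd4 (0.13, 0.0384). Mxd4 missed the threshold in 17 of 36 alternatives (0.12, 0.0766 without reference replicate 5). Of 15 exonuclease and DNA repair genes 2 were called higher, the flap endonuclease Fen1 (0.29, 0.0194) and the helicase Wrn (0.33, 0.0371). Wrn missed the threshold in 16 of 36 (0.22, 0.210 with the clock score) and Fen1 in 2. In the same list 1 of 3 probes of Blm was called, while its brightest had -0.03 (0.874). Of 17 kinesins 1 was called lower, Kif21a (-0.33, 0.00777), and of 12 Nedd4 family and binding genes 1 was called higher, the Nedd4 adaptor Ndfip1 (0.17, 0.0270). The Ndfip1 call was lost in 9 of 36 alternatives, with adjusted p-values of up to 0.112 on the processed signal, and the Kif21a call in 1. Other probes of the called genes did not always follow. Those called were 1 of 4 for Wrn, 1 of 3 for Ndfip1 and 1 of 2 for Esrra and for Mxd4. For Mlxipl 2 of 3 were called, and for Ppargc1a 2 of 2. The paper also measured some of these mRNAs by RT-qPCR, each high-fat group against the reference. It marked Pck1 as lower in both groups, ChREBP as higher in HFoleic only, and Ppargc1a as changed in neither.

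On their brightest probe, none of the 19 tested AMPK-related kinases set beside Snrk was called in limma in the high-fat comparison, although 1 of 2 probes of Sik3 was. Nor was any of the 11 tested centrosome genes set beside Fam110a. Its relatives Fam110b and Fam110c were in that list but were not tested. By their brightest probe 4 and 2 genes of these lists had an unadjusted p under 0.05 and the methods' t-test called 1 and 0 after adjustment. The 1 was Mark4, a microtubule-affinity regulating kinase named here after its value was seen (-0.12, adjusted p = 0.0790 in limma). Over all 8 lists 15 of 130 genes were called, where 6.42% of all probes were, or 14 without reference replicate 5. The count was 10 without reference replicate 1 and 26 without reference replicate 8. With the clock score it was 11, and with no filter on dim probes 10. The lists were chosen with earlier results of these data known, so nothing is read from it. Between HFepa and HFoleic limma called 0 of the 130, with 19 at an unadjusted p under 0.05, and the methods' t-test also called 0. The list medians lay between -0.08 and 0.06, against 0.00 over all tested probes. The exonuclease and repair genes, set beside Exo5, had the lowest of these medians, with 13 of 15 lower in HFepa, where 51.8% of all tested probes were higher. Of the 15, 3 had an unadjusted p under 0.05 in limma. This list was singled out after its values were seen, and no set was tested.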

How the data were processed

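For each of the 24 arrays the authors deposited the Feature Extraction text output (Agilent Feature Extraction 10.10.1.1), whose median signal per spot is an intensity that is not normalized, per the file headers. The authors also deposited a table of quantile-normalized log2 values for 32176 probes, whose columns have medians of 7.825 to 7.829 and which was used as an alternative. The array was scanned in 1 colour, so levels have no ratio to a common sample.

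Of 59305 spots that are no controls, those marked as outliers (134 to 627 per array) were left out, and no spot was saturated. Spots of the same probe were averaged as log2 median signal. A probe was tested if some group had it well above background on 75% or more of its arrays, as held for 30003 of 56605 probes, and these were quantile normalized. Each array had 28804 to 34432 probes well above background, and the number of arrays limits the precision. Arrays of 1 group correlated at 0.9749 to 0.9957, and no pair was identical. Group means were fitted with limma 3.58.1 (lmFit and eBayes, all 24 arrays, two-sided, Benjamini-Hochberg over all tested probes per comparison) in R 4.3.3. The high-fat mean weights its 15 arrays equally. The limma function and the adjustment follow the study's methods, and the t-test named there is called the methods' t-test. Nothing in the labels says how many litters the mice came from, so p-values measure the spread between these mice.

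A gene was matched by its exact name in the scanner files, and coordinates are 1-based mm9 from the same files. The leading probe is the tested probe with the smallest p in HFepa minus HFoleic, and list genes are read from their brightest tested probe. Genes named from a list are those called in the high-fat comparison, at most 5 by p and here with a sixth, Mt1, named after its value was seen. Genes most like a member are the 3 with the highest correlation. Of these, 1 is not reported here. The members and lists were chosen with earlier results of these data known. The fit was tested on simulated data. The alternatives were signal, background correction, normalization, the authors' table, the filter, slide, row, replicate number, array weights, clock score, the test, the probe and each array left out. Tables and figures were made with data.table (version 1.17.8), pandas 2.3.3, numpy 2.4.6 and matplotlib 3.10.9 in Python 3.11.15.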

Additional observations from a re-analysis of the deposited data

Results flagged for a closer look

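On other member probes, 3 values stood far from the rest of their group, among 48 combinations of probe and group examined, of which chance flags about 1 in 20. Prox1 probe 2 read 10.4 in HFoleic replicate 1, where the nearest HFoleic array read 10.9. Kif1b probe 3 read 8.75 in reference replicate 5, the array with the highest stellate cell and bile duct markers, where the nearest read 9.07. Kif1b probe 5 read 10 in reference replicate 4, where the nearest read 10.5. None of these is a leading probe. Reference replicate 5 nevertheless set an end of the reference range on some leading probes. It was lowest on Snrk (9.89) and Kif1b (7.75) and highest on Fam110a (9.45) and Exo5 (8.59). Exo5 had all 8 HFoleic arrays above and all 7 HFepa arrays below the reference mean, with HFepa minus HFoleic at -0.431. That difference was not tested, since it chose the gene.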

How the results depend on the processing

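HFepa minus HFoleic kept its sign for all 8 leading probes in every alternative fit. This contrast chose the probes, so nothing is read from that. Reading each gene from its brightest probe instead gave 0.12 for Kif1b and 0.09 for Fam110a, the latter with the sign turned. On the processed signal Mycn gave -1.58, and HFoleic minus reference 1.97. In the high-fat comparison the 3 member calls became 1 with the clock score as a covariate and 0 by the methods' t-test after adjustment (4 at an unadjusted p under 0.05 in each), and 2 to 3 with 1 array left out. Fam110a missed the threshold with normexp (adjusted p = 0.0527 in limma), with no filter (0.0759) and with the clock score (0.0814). The replicate numbers did not pair the mice: over 21 same-numbered pairs the correlation of deviations was -0.30 to 0.35 with a median of -0.01, and 3 of 21 arrays correlated best with their own number. With the number as a replicate block (replicates 1 to 7), 2 member probes and 1828 probes in all were called in the high-fat comparison and 255 in HFepa minus reference, Glcci1 turned to 0.0055 and Kif1b probe 2 to 0.046. By the brightest probe the high-fat difference turned to -0.075 for Snrk, -0.046 for Kif1b and -0.11 for Fam110a. With 1 array left out, Glcci1 ranged from -0.035 to 0.023 and Snrk from -0.013 to 0.065. Mycn has no value when a probe must be well above background on all arrays.

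Counts over all probes moved as follows. High-fat minus reference had 1187 calls with no filter and 938 with the clock score, and 1278 (without reference replicate 1) to 2824 (without reference replicate 8) with 1 array left out. HFoleic minus reference had 1015 with the clock score, and 1602 to 3097 with 1 array left out. HFepa minus reference had 60 on the processed signal, 0 with no filter (4845 unadjusted), 4 with the clock score and 0 by the methods' t-test (3472 unadjusted), and 0 to 499 with 1 array left out. HFepa minus HFoleic had 2 with the all-arrays filter, 68 with array weights, and 0 to 15 with 1 array left out. List genes called ranged from 10 to 26 with 1 array left out, the extremes again without reference replicates 1 and 8. Of the 15 list genes called, 7 were called in all 36 alternatives and 8 missed the threshold in at least 1, with no change of sign. The causes were not tested.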
